A study of Homo sapiens with 12 samples.

Results

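The SRSF genes encode the serine/arginine-rich (SR) proteins, and 10 of them (SRSF1 to SRSF7, SRSF9, SRSF10 and SRSF11) are described here, each found by its symbol in a count table of 59653 genes. All 10 had reads in every library, and all 10 were kept by the filter on low counts. The RNA came from human neurons that had been differentiated from induced pluripotent stem cells of IMR-90, a fetal lung fibroblast line. The 6 control libraries (siNC) are from cells treated with negative control siRNA, and the other 6 from cells treated with siRNA against ZCCHC17, a zinc knuckle protein of the nucleolus and of nuclear speckles (siZCC); no other treatment is named in the labels, and the sample titles also carry the letters NPC, which the labels do not spell out. All come from 1 cell line, how many siRNA sequences were used and for how long is not given in the sources used here, and since nothing in the labels says that libraries of a group came from separate differentiations, the p-values measure the spread between these libraries only.

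SR proteins carry one RNA recognition motif or a pair of them, followed by a tail rich in arginine-serine repeats. They bind exonic enhancers in pre-mRNA and recruit the U1 snRNP and U2AF to nearby splice sites, and several shuttle to the cytoplasm and take part in mRNA export and translation. Phosphorylation of the tail by SRPK and CLK kinases sets their place in the cell, and many SR genes limit their own level by including a poison exon, which sends the transcript to nonsense-mediated decay (NMD). In neurons they set the inclusion of many alternative exons, among them those of the tau gene.

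The siNC libraries held 90755953 to 120023356 counts each and the siZCC libraries 76115083 to 105389055. ZCCHC17 stood at 53.99 to 61.0 counts-per-million (CPM, scaled by TMM factors for library composition) in siNC and at 9.37 to 10.6 CPM in siZCC (log2 fold change -2.51, SE 0.0402), so the targeted gene was low in every library labelled siZCC. For the cell type markers and IL1B in this paragraph, CPM is given without TMM factors. Of 10 neuron markers, MAP2 was the highest (1035 CPM in siNC) and RBFOX3, a marker of mature neurons, the lowest (1.28 CPM). STMN2 stood at 487 CPM and TUBB3 at 14.3 CPM. The progenitor and astroglial markers VIM (3578 CPM), SOX2 (626 CPM) and GFAP (621 CPM) were abundant. Of 10 neuron markers 4 fell and 1 rose in siZCC, of 8 neural progenitor markers 1 fell and 3 rose, and of 8 astrocyte markers 1 fell and 3 rose. These are calls at an adjusted p under 0.05 in edgeR's quasi-likelihood test, by which 2663 of all 24671 genes tested fell and 2818 rose. The part of these markers in the SRSF results was not tested. In such bulk RNA, fewer cells of a type and less RNA per cell cannot be told apart. In 6 libraries, siNC replicates 2, 3 and 6 and siZCC replicates 1, 4 and 5, the cytokine gene IL1B stood at 5.26 to 15.7 CPM, against 0.0221 to 0.09998 CPM in the others; the SRSF results within each of these sets are given beside the pooled ones.

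The level of each gene was compared per kilobase of exon, using all exonic bases of the gene in GENCODE v29 (GRCh38). In siNC, SRSF5 was the most abundant at 40.8 ± 0.934 CPM per kilobase (SD, n = 6), followed by SRSF2 at 36.9 ± 0.976, SRSF9 at 32.3 ± 0.959, SRSF6 at 31.1 ± 1.18 and SRSF11 at 27.6 ± 1.38. SRSF3 stood at 24.7 ± 1.06, SRSF7 at 21.2 ± 0.590, SRSF4 at 15.8 ± 0.268, SRSF1 at 12.8 ± 0.784 and SRSF10 at 12.4 ± 0.613 CPM per kilobase. In this order the siNC ranges of SRSF9 and SRSF6, of SRSF6 and SRSF11, and of SRSF1 and SRSF10 overlapped, while the other neighbours were apart in all 6 libraries. The order depends on the length used. Per kilobase of the longest annotated transcript SRSF5 (71.8 CPM per kilobase) was followed by SRSF9 (71.0) and SRSF11 (58.4), and SRSF1 (13.7) was the lowest. SRSF1, SRSF2 and SRSF9 share 56.6%, 36.7% and 46.2% of their exonic bases with AC015813.2, MFSD11 and GATC, in that order. How reads in shared exons were counted is not known, so the places of these genes are less certain. The 10 genes together took 0.141% ± 0.00338 of all counts in siNC and 0.128% ± 0.00336 in siZCC (SD, n = 6 each), and their summed CPM ran from 1352 to 1435 in siNC and from 1261 to 1340 in siZCC.

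**Figure D1:**
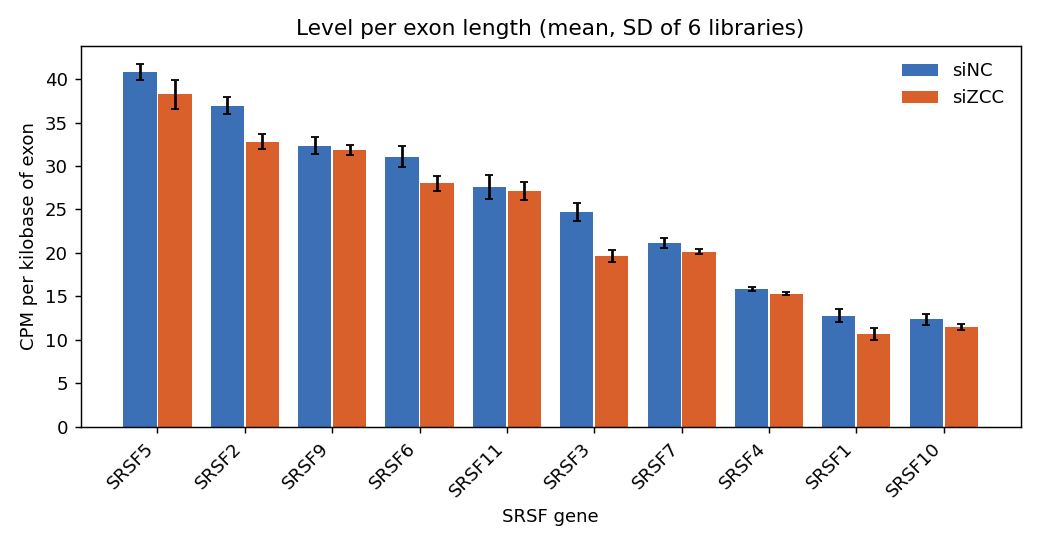
Mean level of each of the 10 SRSF genes in CPM per kilobase of exon; bars are means of 6 siNC (blue) and 6 siZCC (orange) libraries and error bars are SDs. SRSF5 and SRSF2 were highest in both groups, and the gap between groups was widest for SRSF3, from 24.7 to 19.7 CPM per kilobase.

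After ZCCHC17 siRNA, 6 of the 10 SRSF genes fell and 0 rose: SRSF3, SRSF1, SRSF2, SRSF6, SRSF10 and SRSF5, in order of size. The falls were small: SRSF3 fell by 20.5% and SRSF5 fell by 6.24%, with the others between them. The other 4, SRSF7, SRSF4, SRSF11 and SRSF9, had log2 fold changes between -0.071 and -0.022 and did not pass the test (edgeR's quasi-likelihood test, adjusted p under 0.05 after Benjamini-Hochberg adjustment over all genes). Across all 24671 genes tested, 22.2% passed in either direction and 10.8% were lower in siZCC; among the 6299 genes at least as abundant as the lowest member (SRSF1, 39.2 CPM over the 12 libraries), 13.2% were lower. The median log2 fold change of the 10 genes was -0.101, against -0.0016 over all genes tested and 0.011 over those as abundant. All 10 had a negative log2 fold change, a sign that 50.4% of all genes and 45% of those as abundant also had. The members were named with results of these data known, so these counts are a description of the family.

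SRSF3 has a single RNA recognition motif and the shortest protein of the family, and it shuttles to the cytoplasm, where it serves as an adaptor for mRNA export. It stood at 165, 178 and 183 CPM (lowest, median and highest of 6 libraries) in siNC and at 134, 140 and 147 CPM in siZCC. Every siZCC library was below every siNC library, with a wide gap between the groups. The gene (ENSG00000112081.16) lies on chromosome 6 from 36594353 to 36605600 (GRCh38, plus strand). The log2 fold change was -0.33 (SE 0.0328; 95% interval -0.40 to -0.26; adjusted p 4.14e-06 in edgeR's quasi-likelihood test), which leaves 79.5% of the control level, and 3.5% of all genes tested both passed the test and fell by at least as much. Within the 6 libraries high in IL1B it was -0.35 and within the 6 low in IL1B -0.32. Tested against a minimum change of 1.2-fold the fall did not pass (adjusted p 0.229, edgeR's glmTreat), nor did any other member, and 0.681% of all genes were lower by that test.

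SRSF1, the founding member of the family and a proto-oncogene product that sets splice site choice, fell by 0.27 on the log2 scale (SE 0.0467; adjusted p 6.59e-04 in edgeR's quasi-likelihood test). The gene (ENSG00000136450.12) lies on chromosome 17 from 58003360 to 58007346 (minus strand). It was measured at 39.2, 43.4 and 45.9 CPM in siNC and at 33.1, 35.0 and 38.9 CPM in siZCC (lowest, median and highest of 6). The groups did not overlap, but the highest siZCC library, replicate 2, came close to the lowest siNC library, also replicate 2. The log2 fold change was -0.31 within the libraries high in IL1B and -0.23 within those low in IL1B. Its spread within a group was the widest of the 10 genes, with a coefficient of variation of 6.12% in siNC and 6.62% in siZCC, where counting error alone gives 1.58%. Of its exonic bases, 56.6% are shared in GENCODE v29 with AC015813.2 on the same strand, which holds 30 counts over the 12 libraries; how reads in shared exons were counted is not given in the sources used here.

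SRSF2, a member that stays in the nucleus and marks the nuclear speckles where splicing factors are stored, fell by 0.17 (SE 0.0276; adjusted p 3.46e-04 in edgeR's quasi-likelihood test). It ran through 108, 111 and 115 CPM in siNC and 96.3, 98.8 and 104 CPM in siZCC (lowest, median and highest of 6), and the groups did not overlap; within the IL1B sets the change was -0.17 (high) and -0.175 (low). Its exons overlap on the opposite strand with those of MFSD11, over 36.7% of the exonic bases of SRSF2; MFSD11 was measured at 22.5 ± 0.817 CPM in siNC, against 23.6 ± 0.572 after ZCCHC17 siRNA (SD, n = 6 each; adjusted p 0.126 in edgeR's quasi-likelihood test). SRSF6, which has a pair of RNA recognition motifs and acts on tau exons, fell by 0.15 (SE 0.0308; adjusted p 0.00233 in edgeR's quasi-likelihood test). Its values were 134, 144 and 149.8 CPM in siNC and 124, 129 and 134 CPM in siZCC (lowest, median and highest of 6); the groups did not overlap, although the highest siZCC and the lowest siNC library were close together. SRSF6 kept this direction in both IL1B sets (-0.16 in the high, -0.14 in the low), with adjusted p of 0.0534 and 0.0684 over 6 libraries each, by edgeR's quasi-likelihood test.

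These 4 genes, SRSF1, SRSF2, SRSF3 and SRSF6, are the members in which no siZCC library reached the siNC range; the same held for 4.5% of all genes tested and 6.27% of those as abundant as the members. Groups that lie fully apart fix the exact permutation test over the libraries (two-sided) at p = 0.00216, the smallest that 6 against 6 allows. This value therefore adds no support beyond the separation itself.

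**Figure D2:**
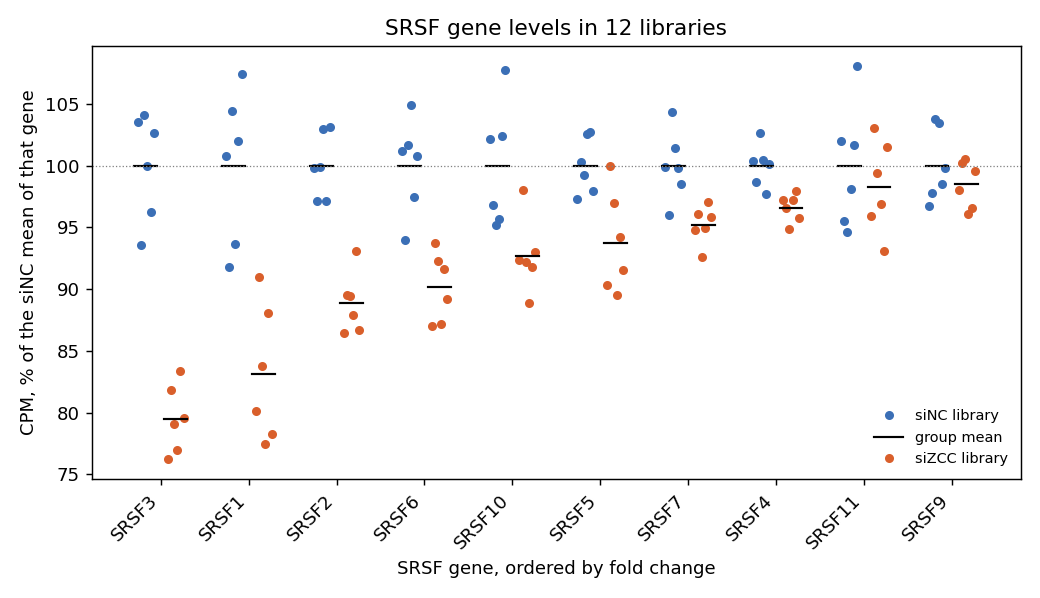
CPM of the 10 SRSF genes in each of the 12 libraries as a percentage of the siNC mean of that gene, ordered by fold change; points are libraries and bars are group means. SRSF3, SRSF1, SRSF2 and SRSF6 show no overlap of the groups, while the siZCC points of SRSF11 and SRSF9 lie among the siNC points.

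SRSF10 and SRSF5 fell by less, and their calls rested on the full set of libraries. SRSF10, which represses splicing when its tail is dephosphorylated, as in heat shock and mitosis, stood at 121, 126 and 137 CPM in siNC and at 113, 117 and 125 CPM in siZCC (lowest, median and highest of 6). The ranges overlapped, though 5 of the 6 siZCC values were under the siNC range. Its log2 fold change was -0.11 (SE 0.0341; adjusted p 0.0291 in edgeR's quasi-likelihood test), and the adjusted p rose to between 0.0523 and 0.0876 when siNC replicate 1, 5 or 6 or siZCC replicate 1, 3, 4 or 5 was left out. SRSF5, an enhancer-binding member with a pair of RNA recognition motifs, stood at 213, 218 and 224 CPM in siNC and at 196, 203 and 218 CPM in siZCC; again 5 of the 6 siZCC values were under the siNC range. Its log2 fold change was -0.093 (SE 0.0306; adjusted p 0.0375 in edgeR's quasi-likelihood test). The adjusted p was 0.0558 to 0.0914 on removal of any one of siNC replicates 2, 4 and 5 and siZCC replicates 1, 4, 5 and 6. A replicate block gave 0.0572, and correction for GC content and length gave SRSF5 a log2 fold change of -0.058 (adjusted p 0.135). Within the libraries high in IL1B the log2 fold changes were -0.14 for SRSF10 and -0.12 for SRSF5, and within those low in IL1B they were -0.084 and -0.069; none of these passed.

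The remaining 4 members did not pass the test. SRSF7, the closest relative of SRSF3 and the member with a CCHC zinc knuckle, the fold that also gives ZCCHC17 its name, had 82.2 to 89.3 CPM in the siNC libraries and 79.3 to 83.1 in the siZCC libraries, with a log2 fold change of -0.071 (95% interval -0.13 to -0.015; adjusted p 0.0626 in edgeR's quasi-likelihood test). It passed with DESeq2's Wald test (adjusted p 0.0268), with upper quartile scaling (0.0433), with a mean count of at least 50 (0.0462) and without siNC replicate 2 (0.0379). SRSF4, the longest protein of the family, had 138 to 145 CPM in the siNC libraries and 134 to 138 in the siZCC libraries, and 5 of the 6 siZCC values were under the siNC range. Its spread was the smallest of the 10 genes, with coefficients of variation of 1.69% and 1.16%. The log2 fold change of SRSF4 was -0.050 (95% interval -0.099 to -0.00099; adjusted p 0.138 in edgeR's quasi-likelihood test), and DESeq2's Wald test gave an adjusted p of 0.0492. SRSF9 had 117, 120 and 126 CPM in siNC and 116, 120 and 122 in siZCC (lowest, median and highest of 6), and SRSF11 had 221, 234 and 253 against 218, 230 and 241. In both genes 4 or more siZCC libraries lay inside the siNC range. SRSF9, a relative of SRSF1 with a short arginine-serine tail, gave -0.022 (95% interval -0.078 to 0.035), and SRSF11, which can bridge enhancer-bound SR proteins and the snRNPs at splice sites, gave -0.025 (-0.099 to 0.049). The intervals of SRSF9 and SRSF11 exclude a fall as large as the 0.15 of SRSF6. Exons of SRSF9 share 46.2% of their bases with GATC on the opposite strand, whose level was 47.9 ± 1.75 CPM in siNC against 47.5 ± 1.31 in siZCC (SD, n = 6 each).

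**Figure D3:**
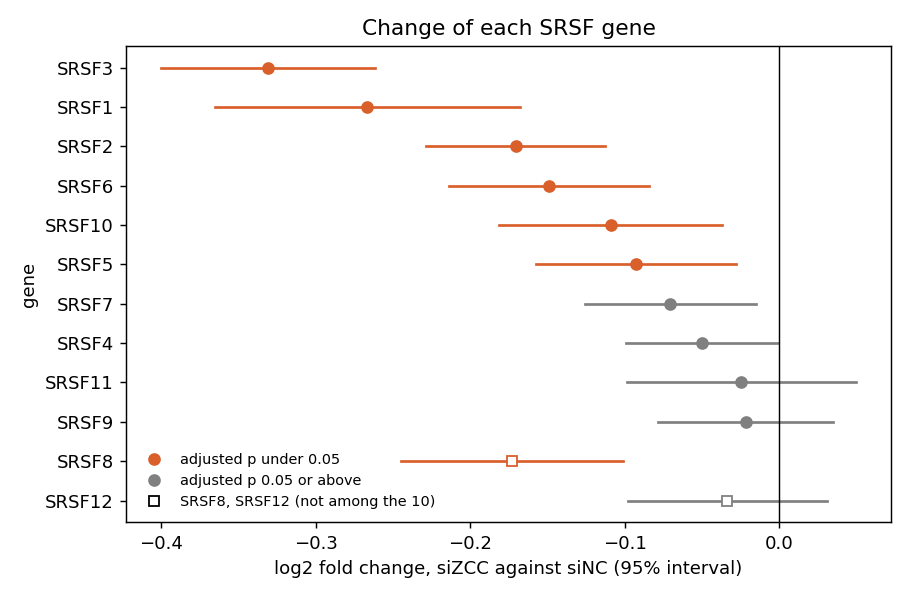
Log2 fold change of each SRSF gene, siZCC against siNC, with its 95% interval; orange marks an adjusted p under 0.05, and squares are SRSF8 and SRSF12, which are not among the 10. The values run from -0.33 for SRSF3 to -0.022 for SRSF9, and the intervals of SRSF11 and SRSF9 include 0.

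SRSF8 and SRSF12 complete the family in the table. SRSF8, a copy of SRSF2 that arose by retroposition, went from 54.8 ± 1.91 to 48.6 ± 2.19 CPM (SD, n = 6 each), a log2 fold change of -0.17 (SE 0.0339; adjusted p 0.00160 in edgeR's quasi-likelihood test), beside -0.17 for SRSF2. SRSF12, a relative of SRSF10 with a splicing-repressor role, went from 37.4 ± 0.851 to 36.5 ± 1.40 CPM, and its log2 fold change of -0.034 did not pass (adjusted p 0.477). The table also lists 8 SRSF pseudogene rows, which together hold 444 counts over all libraries, or 0.0272% of the counts of the 10 genes.

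Related members were then compared within each library as a ratio of their counts, which does not depend on scaling between libraries. The 7 pairs were chosen by kinship of the proteins after the single values had been seen, so their p-values are a description of these pairs. The count of SRSF3 relative to SRSF7 went from 2.06 ± 0.0669 (1.98 to 2.14) in siNC to 1.72 ± 0.0483 (1.65 to 1.77) in siZCC (SD, n = 6 each). The groups did not overlap, and the log2 ratio fell by 0.26, so SRSF3 fell more than its closest relative. Full separation fixes the exact permutation test (two-sided) at p = 0.00216 (adjusted over the 7 pairs 0.00756), which adds no support beyond the separation. How often other pairs of genes lie fully apart was not counted. SRSF1 relative to SRSF9 went from 0.354 ± 0.0232 to 0.298 ± 0.0189, a log2 change of -0.25 (exact permutation p = 0.00649, adjusted 0.0151). In 4 of the 6 siZCC libraries this ratio was under the siNC range.

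Among SRSF4, SRSF5 and SRSF6, which share a pair of RNA recognition motifs and a long tail, the log2 ratio of SRSF6 to SRSF4 changed by -0.099 (exact permutation p = 0.00866, adjusted 0.0152). The log2 ratio of SRSF6 to SRSF5 changed by -0.055 (exact permutation p = 0.0779, adjusted 0.109), with p = 0.0260 without siNC replicate 2 and 0.0346 without siNC replicate 5, and that of SRSF5 to SRSF4 by -0.044 (exact permutation p = 0.242, adjusted 0.282). SRSF10 relative to SRSF12 fell by 0.074 with no overlap of the groups, which again fixes the exact permutation test at p = 0.00216 (adjusted 0.00756). SRSF2 to SRSF8 was 2.04 ± 0.105 in siNC and 2.04 ± 0.0682 in siZCC (SD, n = 6 each; exact permutation p = 0.955), and single libraries left out moved the change of its log2 ratio between -0.017 and 0.021. As shares of the summed level per kilobase of exon of the 10 genes, SRSF3 went from 9.67% ± 0.289 to 8.36% ± 0.176, SRSF1 from 5.01% ± 0.255 to 4.52% ± 0.209 and SRSF9 from 12.6% ± 0.311 to 13.5% ± 0.262 (SD, n = 6 each). A share grows when other members fall, and SRSF9 itself did not rise (log2 fold change -0.022).

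**Figure D4:**
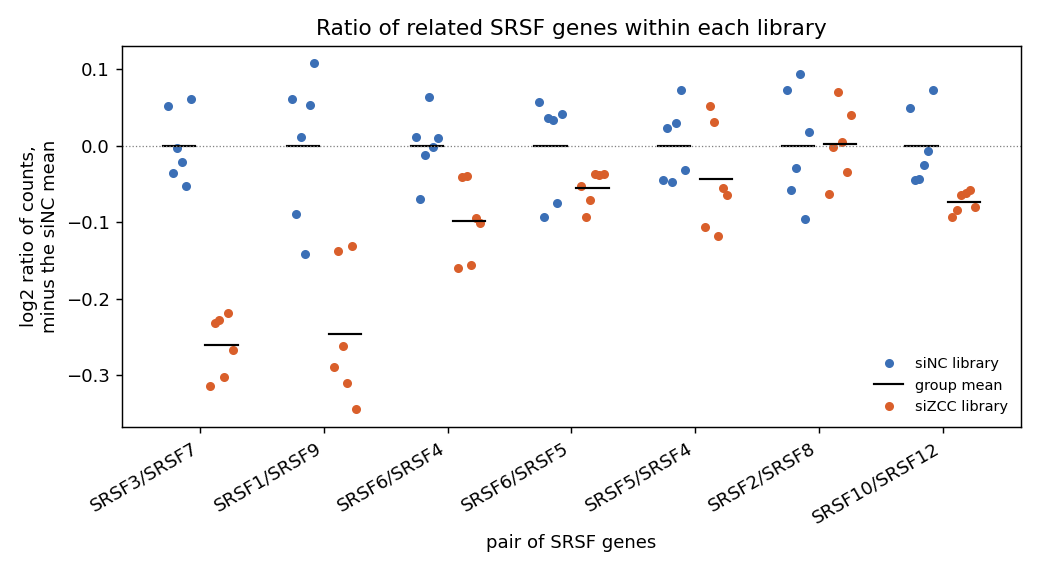
Log2 ratio of the counts of 2 related SRSF genes within each library, minus the siNC mean of that pair; points are libraries (blue siNC, orange siZCC) and bars are group means. The ratios SRSF3/SRSF7 and SRSF10/SRSF12 do not overlap between the groups, with changes of -0.26 and -0.074, and SRSF2/SRSF8 changes by 0.0024.

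The promoters of both pairs with the largest difference, SRSF3 with SRSF7 and SRSF1 with SRSF9, were chosen after their values were seen, and are shown because in each a falling member stands beside a relative that did not pass the test. They are RefSeq sequences (GRCh38.p14), read on the strand of the gene from the upstream end and cut before the first base of any GENCODE transcript: chr6:36594112-36594352 on the plus strand for SRSF3, chr2:38751495-38751744 on the minus strand for SRSF7, chr17:58007347-58007496 on the minus strand for SRSF1 and chr12:120469794-120469998 on the minus strand for SRSF9. Capitals mark any of the words searched on either strand: the CCAAT box bound by NF-Y, the GC box GGGCGG of SP1, the E2F word TTTNNCGC, the cell cycle homology region TTTGAA, the E-box CACGTG of MYC, the cAMP response element core TGACGT and the TATA box TATAAA.
SRSF3: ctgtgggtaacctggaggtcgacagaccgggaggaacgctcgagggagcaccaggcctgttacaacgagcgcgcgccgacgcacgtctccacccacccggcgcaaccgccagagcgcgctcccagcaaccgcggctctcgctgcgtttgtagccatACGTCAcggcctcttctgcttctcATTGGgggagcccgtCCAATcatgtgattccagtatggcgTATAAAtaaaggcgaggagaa
SRSF7: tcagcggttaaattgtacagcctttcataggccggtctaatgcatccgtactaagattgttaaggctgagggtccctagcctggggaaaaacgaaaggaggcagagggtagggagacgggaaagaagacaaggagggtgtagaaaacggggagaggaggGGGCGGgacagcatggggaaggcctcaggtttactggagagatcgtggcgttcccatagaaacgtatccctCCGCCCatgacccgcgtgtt
SRSF1: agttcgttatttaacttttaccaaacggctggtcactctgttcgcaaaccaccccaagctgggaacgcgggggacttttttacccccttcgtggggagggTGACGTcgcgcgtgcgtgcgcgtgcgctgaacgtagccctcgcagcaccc
SRSF9: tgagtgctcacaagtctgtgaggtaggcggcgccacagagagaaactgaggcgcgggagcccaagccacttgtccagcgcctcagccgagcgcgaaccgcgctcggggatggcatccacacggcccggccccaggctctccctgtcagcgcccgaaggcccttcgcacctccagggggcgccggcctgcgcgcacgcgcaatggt

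The capitals in SRSF3 are a TGACGT word on the minus strand, CCAAT on each strand and TATAAA, those in SRSF7 are GGGCGG on each strand, and that in SRSF1 is TGACGT; the SRSF9 stretch holds none of them. Of the 10 members 9 had a promoter in the RefSeq table, SRSF2 being the other one. In windows of 300 bases around the most upstream start, TGACGT was found in 3 of the 9 (SRSF1, SRSF3 and SRSF5), against 8.3% of 27305 promoters, and GGGCGG in 3 (SRSF4, SRSF6 and SRSF7), against 44.5%. CCAAT (35.7% of all promoters) and TATAAA (3283 of the 27305) were found in SRSF3 only, TTTGAA (15.5%) in SRSF6 and SRSF11, TTTNNCGC (6.9%) in SRSF10 and CACGTG (7.4%) in none. A match is a description of the letters, and the part of these words in the SRSF changes was not tested.

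In GENCODE v29 every one of the 10 genes has at least 1 transcript annotated as a target of NMD, from 1 in SRSF5, SRSF6 and SRSF9 to 6 in SRSF7, against 45.8% of the 6109 protein-coding genes as abundant as the members. A count per gene adds these transcripts to the coding ones, so the values above do not separate productive from poison-exon transcripts, and neither splicing nor protein was measured here.

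Genes that act on SR proteins were given from lists by role. Their counts stand beside the 22.2% of all genes tested that passed in either direction and the 10.8% that were lower. Of the 9 SR protein kinases, 2 fell and 0 rose. The share that passed in either direction was close to that of all genes, and the share that fell was above the 10.8%, on a count of 2. CLK1, a nuclear kinase that releases SR proteins from speckles, went from 74.8 to 66.5 CPM, a log2 fold change of -0.17 (SE 0.0303; adjusted p 7.46e-04 in edgeR's quasi-likelihood test), and its groups did not overlap. SRPK1, the cytoplasmic kinase that primes the tail for nuclear import, had -0.091 (adjusted p 0.0436), but it no longer passed (adjusted p 0.0567 to 0.115) when any one of siNC replicates 1, 3, 4, 5 and 6 and siZCC replicates 1, 3, 4 and 6 was removed, nor with the replicate block (0.0792). The others did not pass, with log2 fold changes of 0.041 for SRPK2, 0.16 for SRPK3 (1.99 CPM in siNC), -0.047 for CLK2, 0.059 for CLK3, 0.030 for CLK4, -0.094 for PRPF4B and -0.0092 for DYRK1A. Without siNC replicate 2, without siNC replicate 3 or without siZCC replicate 2, PRPF4B passed at adjusted p of 0.0327 to 0.0476. The median of the 9 was -0.0092.

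Of 7 genes of nuclear import and dephosphorylation, 3 fell and 0 rose (median -0.064), led by the phosphatase subunit PPP1CA (-0.17, SE 0.0323) and its nuclear regulator PPP1R8 (-0.095, SE 0.0254). Of 18 SR-like and SR-related genes, 7 fell and 1 rose (median -0.033). TRA2A, a splicing activator (-0.16, SE 0.0271), and BCLAF1 (-0.20, SE 0.0355) fell, and SRRM1, a coactivator of SR protein function (0.11, SE 0.0295), rose. Of 22 hnRNP genes, whose proteins often oppose SR proteins at exons, 10 fell and 2 rose (median -0.081). HNRNPM (-0.28, SE 0.0350) and HNRNPK (-0.14, SE 0.0220) had the smallest p among falls. Those that rose were HNRNPLL (0.092, lost without siZCC replicate 3 or 6 at adjusted p 0.0503 and 0.0536, and at 0.0564 with the replicate block) and HNRNPC (0.073), which no longer passed (adjusted p 0.0537 to 0.113) when any one of siNC replicates 1, 4, 5 and 6 and siZCC replicates 1, 3, 4 and 6 was removed, nor with the replicate block (0.107).

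Of 11 mRNA export partners, 3 fell and 0 rose (median -0.078), with THOC7 (-0.23, SE 0.0444) and THOC5 (-0.11, SE 0.0314), both subunits of the THO complex, first by p. Of 15 NMD and exon junction factors, 3 fell and 1 rose (median -0.030). UPF2 (-0.096) and UPF3B (-0.12) link the exon junction complex to the decay machinery, and CASC3, a junction component, rose by 0.11. UPF2 no longer passed (adjusted p 0.0521 to 0.0744) when any one of siNC replicates 1 and 6 and siZCC replicates 1 and 4 was removed, or with the replicate block (0.0540), nor did UPF3B (0.0529 to 0.0688) on removal of siNC replicate 3 or of any one of siZCC replicates 1, 3 and 4. All adjusted p in these list counts are from edgeR's quasi-likelihood test.

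Markers of dividing cells moved in the same comparison. Of 23 such markers, 15 fell and 0 rose (median log2 fold change -0.31) by edgeR's quasi-likelihood test, beside 10.8% of all genes tested that were lower. Their summed level ran from 1576 to 1723 CPM in siNC and from 1301 to 1504 CPM in siZCC, and none of the 23 was at 0. CCNB1, the mitotic cyclin, fell by 0.61 (SE 0.0410) and BIRC5 by 0.51 (SE 0.0376), more than any SRSF gene. Of the replication genes, PCNA passed with a smaller fall (-0.10). MCM3 to MCM7 and RRM2 were negative, from -0.061 for MCM6 to -0.14 for RRM2, and did not pass. Neither did TYMS (-0.020) and MCM2 (0.057), the only positive value in the list. The part of dividing cells in the SRSF values was not tested.

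Which library of a group was highest or lowest differed between members, and the same counts over all genes were not made. In siZCC, replicate 2 was the highest library for 5 of the 10 genes and replicate 5 for 4, and replicate 4 the lowest for 4. In siNC, replicates 3 and 6 were each the highest for 4, and replicate 2 the lowest for 4. The siZCC replicate 2 value of SRSF5 (218 CPM) lay just above the siNC median of that gene.

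The genes whose pattern over the 12 libraries was most like that of SRSF3 were sought among 12615 genes of 5 CPM or more on average, by the root mean square difference of log2 CPM after subtracting the siNC mean of each gene. They were SKA2 (0.0474) and CKAP2 (0.0476), both proteins of the mitotic spindle, PIGW (0.0499), an enzyme of GPI anchor synthesis, AL008721.2 (0.0519) and DCAF6 (0.0528), a substrate receptor of a ubiquitin ligase. SKA2 fell by 0.32 (SE 0.0438) and CKAP2 by 0.36 (SE 0.0284). These distances describe 12 libraries in which the group difference itself is part of the pattern.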

How the data were processed

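What the authors deposited is 1 matrix of raw counts, genes by symbol in rows and a column for each of the 12 libraries; per the labels, libraries were prepared from total RNA with a NEBNext Ultra II Directional kit. The submitters' processing notes name bcl2fastq 2.17, STAR 2.7.6a, featureCounts 2.0.1 and the build GRCh38; which annotation and strand setting were used is not given in the sources used here, so reads in overlapping genes may be divided in ways not known.

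Counts were analysed in R 4.3.3. With edgeR 4.0.16, genes were kept by filterByExpr (about 0.0997 CPM in enough libraries), scaled by TMM and compared by the quasi-likelihood test over all 12 libraries without covariates, with Benjamini-Hochberg adjustment over all 24671 genes kept and a threshold of 0.05. The SE is the log2 fold change divided by the square root of F, and 95% intervals use the test's degrees of freedom. Log2 CPM uses a prior count of 2. Permutation tests are exact over 924 assignments. Depth makes counting error small (0.654% to 1.58% of the level for the members), and replicate spread was larger. The biological coefficient of variation that edgeR fitted in common to all genes was 6.55%. The coefficients of variation of the members within a group ran from 1.16% (SRSF4, siZCC) to 6.62% (SRSF1, siZCC). Within a group every pair of libraries differed by more than sampling noise (lowest chi-square over its degrees of freedom 4.72, highest 22.3). Tested on simulated data for siZCC against siNC (24361 genes), the edgeR test called 44% of the genes given a log2 change of 0.25 and 70% of those given 0.5. These genes were drawn at random from all 24671 kept, of which 6299 were as abundant as the lowest member. The rates are therefore not those for the SRSF genes.

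Alternatives used DESeq2 1.42.0, limma 3.58.1 (voom), sva 3.50.0, other scalings and filters, a replicate block, a minimum of 1.2-fold, thinning, GC content and length (known for 94.6% of genes tested) and leaving out each library; the IL1B fits and the pairs were added after seeing the data. The members and lists were chosen with earlier results of these data known. Named genes are the members, SRSF8, SRSF12, ZCCHC17, all SR kinases, in other lists the 2 smallest p under the threshold in each direction, and the 5 genes most like SRSF3; marker, import and overlapping genes named beside them were chosen after their values were seen. Gene positions, lengths and transcript types came from GENCODE v29 and promoters from RefSeq, read in Python 3.11.15 with pandas 2.3.3; figures used matplotlib 3.10.9.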

Additional observations from a re-analysis of the deposited data

Results flagged for a closer look

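Of 28 groups of 6 values examined (the 10 SRSF genes, SRSF8, SRSF12, library totals and the summed CPM of the 10 genes, in each treatment), 1 held a library beyond Dixon's limit for a value far from the rest, which chance alone passes in about 1 in 20. It was the depth of siNC replicate 4, 90755953 counts, while its group's remaining libraries held 109973707 to 120023356. No SRSF gene stood apart by this measure in any library.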

How the results depend on the processing

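SRSF3, SRSF1 and SRSF2 kept their fall and their call in every alternative but the test against 1.2-fold, with log2 fold changes of -0.35 to -0.31, -0.31 to -0.23 and -0.18 to -0.14, and in every fit without 1 library. Against a minimum change of 1.2-fold, 349 genes and 0 SRSF members passed. SRSF3 (-0.33), SRSF1 (-0.27), SRSF2 (-0.17), SRSF6 (-0.15), SRSF10 (-0.11) and SRSF5 (-0.093) were all lost. That test asks for a change beyond 1.2-fold, not only for one other than 0.

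Among the SRSF genes, the other changes of a call by scaling, filter or tool were those of SRSF5 with the GC content and length correction (-0.058), of SRSF4 with DESeq2's Wald test (-0.051), and of SRSF7 with upper quartile scaling (-0.079), a mean count of at least 50 (-0.070) and DESeq2's Wald test (-0.071); the cause was not tested. Among the other named genes, the GC content and length correction ended the calls of UPF2 (adjusted p 0.0775) and UPF3B (0.0657) and made one of SRPK2 (0.0375). Upper quartile scaling ended that of HNRNPC (0.0755) and made one of PRPF4B (0.0418), thinning ended that of HNRNPC (0.0553), and no filter on low counts ended those of SRPK1 (0.0662), HNRNPLL (0.0847) and HNRNPC (0.193). The sign turned, near 0, for SRSF9 (0.016) and SRSF12 (0.010) with the GC content and length correction, so that 9 of 10 members were negative there. Upper quartile scaling left the median of all genes at -0.010 and took the share of higher among called genes from 51.4% to 46.4%; the GC content and length correction left the median at 0.0037 and took that share to 56.3%.

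No pairing by replicate number was seen, as libraries sharing a number had deviations with correlations of -0.077 to 0.0179. Under the replicate block 4902 genes and 5 members were called, SRSF5 (-0.094) being lost, as were SRPK1, HNRNPLL, HNRNPC and UPF2 among the other named genes, and the remaining named genes stayed on their side of the threshold.

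Fits within the IL1B sets hold 6 libraries each. The high set called 2043 genes and 3 members, losing SRSF5 (-0.12), SRSF6 (-0.16) and SRSF10 (-0.14), and turned CLK4 (-0.017). The low set called 1602 genes and 3 members, losing SRSF5 (-0.069), SRSF6 (-0.14) and SRSF10 (-0.084), and turned SRSF9 (0.0076) and SRSF11 (0.010). SRSF3, SRSF1 and SRSF2 were called in both sets. Of the 31 named genes outside the SRSF family, 10 lost their call in the high set and 12 in the low set. The 31 include 7 SR protein kinases that had not passed over all 12 libraries and so had no call to lose.

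Leaving out each library in turn gave 4484 to 5626 genes and 4 to 6 members called, with SRSF5 at -0.11 to -0.078, SRSF10 at -0.13 to -0.086 and SRSF7 at -0.082 to -0.058. Signs turned for CLK4 (-0.0082 to 0.052), DYRK1A (-0.021 to 0.0057) and the log2 ratio of SRSF2 to SRSF8 (-0.017 to 0.021), all near 0.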
